A study of Mus with 10 samples.

Results

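The Ly49 receptors are C-type lectin-like proteins of the natural killer (NK) cell surface, encoded in the mouse by the *Klra* genes. The 10 members *Klra1* to *Klra10*, which encode Ly49A to Ly49J, were taken by gene symbol from the 24564 genes of a read count table of liver type 1 innate lymphoid cells (ILC1s), and all 10 were in the table. ILC1s were sorted from livers of 6- to 8-week-old C57BL/6 mice, male or female, of 2 genotypes. Ncr1gfp/gfp mice carry *gfp* in place of *Ncr1* on both alleles and are deficient in the activating receptor NKp46, whereas Ncr1+/+ mice are wild type. The comparison asks how the loss of NKp46 bears on the transcripts of ILC1s. By the paper's Methods, the Ncr1+/+ mice were bought from The Jackson Laboratory, whereas for Ncr1gfp/gfp mice they refer to an earlier description. Its reporting summary names that supplier for both. Neither describes the genotypes as littermates, so that a difference between colonies cannot be told apart from genotype.

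Each genotype had 5 libraries, referred to as replicates 1 to 5. Both sorts took lineage-negative, NK1.1+, CD49a+, CD49b- cells, but Ncr1+/+ cells were also gated by NKp46 and Ncr1gfp/gfp cells by GFP, so that genotype and gate cannot be told apart. The sources used here do not say whether a library was made from a single mouse or from pooled mice, so that p-values measure the spread between these libraries. Levels are given as CPM, the count of a gene relative to the library total, after TMM scaling for library size. *Ncr1* itself was at 1913 to 2144 CPM in Ncr1+/+ and at 141 to 356 CPM in Ncr1gfp/gfp libraries. The paper also reports a small fraction of Ncr1gfp/gfp ILC1s that still stained for NKp46. Library totals lay between 15796253 and 22623133 counts, which put 3 counts, taken as the limit that a count of 0 allows, at 0.132 to 0.190 CPM. Ncr1gfp/gfp replicate 3 and Ncr1+/+ replicate 1 stood apart by a high sum of 6 hepatocyte genes (54.3 and 31.5 CPM, against at most 5.60 CPM in any other library), and the called members, *Klra1*, *Tcf7* and the called marker genes are given with and without them.

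Most Ly49 receptors are inhibitory. A tyrosine-based motif in their cytoplasmic tail recruits the phosphatases SHP-1, SHP-2 and SHIP when the receptor binds MHC class I, and this restrains the cell that carries it. Ly49D and Ly49H are activating and signal through the adaptors DAP12 and DAP10 instead. Individual NK cells carry different combinations of these receptors, whereas liver ILC1s are known for Ly49E and for carrying few of the others. The genes are close paralogs that lie side by side in the NK gene complex, and reads from near-identical stretches may be shared among them.

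In the deposited table, 9 of the 10 members lay between 129849009 and 130336892 on the minus strand of chromosome 6, and *Klra2* lay apart on the same strand from 131169253 to 131197380. The table names no genome build, and all coordinates here are as it lists them. It holds 20 *Klra* rows in all. Of the 10 that are not members, 6 symbols (*Klra12*, *Klra15*, *Klra18*, *Klra19*, *Klra21* and *Klra22*) are not symbols of the RefSeq gene table for the C57BL/6J assembly GRCm38.p6, in which *Klra22* is an older name of *Klra1*. Their listed spans lie over those of the members. A total of 8 of the 10 members share their span, on the same strand, with another row, whereas 11.2% of all rows in the table do. *Klra2* and *Klra5* are the members with no such overlap.

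*Klra4*, which encodes the activating receptor Ly49D, and *Klra6*, which encodes the inhibitory receptor Ly49F, were listed at 0 in all 10 libraries. *Klra4* shares 99.9% of its span with *Klra18*, a row with 84 counts over the 10 libraries, and *Klra6* shares 99.99% of its span with *Klra19*, which was also at 0. At its default setting the counting program that the authors used sets aside reads that fall on exons of more than 1 gene, so that a 0 in such a row is not a measure of expression. Of rows that share their span with another, 41.6% were at 0 in every library, against 31.2% of the other rows. The table gives no exon positions, and the part of these overlaps in the counts of the members was not tested.

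The remaining 8 members passed the filter on low counts and were compared between the genotypes in a fit across 11463 genes. Genes were called at an adjusted p under 0.05 together with a fold change above 1.5 or below 0.7. Among the 8 members, *Klra5* and *Klra7* were called, both higher in Ncr1gfp/gfp ILC1s, and no member was called lower. Over all tested genes, 0.733% were called in either direction and 0.201% were called higher. The other 6 tested members did not pass, with adjusted p-values from 0.389 to 0.953 (edgeR quasi-likelihood test, Benjamini-Hochberg adjusted). The log2 fold changes of the 8 members had a median of 0.52, against 0.00 over all tested genes, and none was below 0 in the fit with all libraries, although those of *Klra8* and *Klra9* fell below 0 when single libraries were left out. A log2 fold change above 0 was found for 50.7% of all tested genes. As members may share reads, their directions may not be separate observations.

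**Figure D1:**
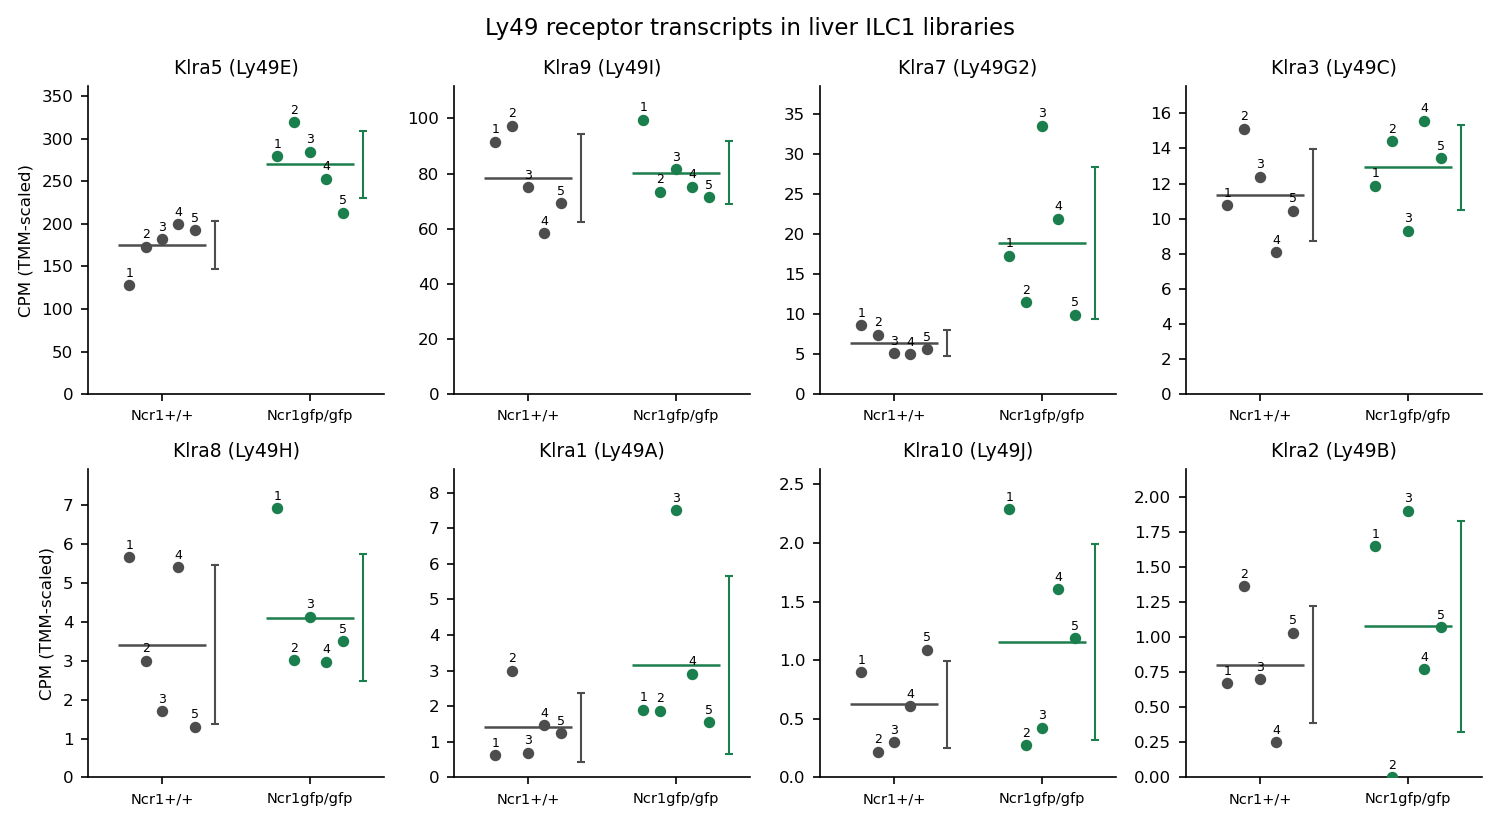
Levels of the 8 tested Ly49 receptor genes in CPM (y axes, each from 0) in 5 Ncr1+/+ and 5 Ncr1gfp/gfp libraries. Points are libraries with their replicate number, lines are means and bars are SD. The genotypes do not overlap for *Klra5* (128 to 199.9 against 213 to 319 CPM) and *Klra7* (5.00 to 8.63 against 9.94 to 33.5 CPM), and they overlap for the other 6.

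*Klra5* encodes Ly49E, an inhibitory receptor of fetal NK cells and liver ILC1s. It was by far the most counted member, with 2277 to 6990 counts per library. In Ncr1+/+ replicates 1 to 5 it had 128, 173, 182, 199.9 and 192 CPM, and in Ncr1gfp/gfp replicates 1 to 5 it had 279, 319, 285, 253 and 213 CPM. Every Ncr1gfp/gfp library lay above every Ncr1+/+ library. Of all tested genes, 3.11% had levels that did not overlap between the genotypes, and *Klra5* and *Klra7* were the members among them.

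The mean of *Klra5* was 270.0 ± 39.6 CPM in Ncr1gfp/gfp and 175 ± 28.4 CPM in Ncr1+/+ libraries (SD, n = 5 per genotype). The difference was 1.54-fold, a log2 fold change of 0.62 with a standard error of 0.10 and an adjusted p of 0.00207 in the edgeR quasi-likelihood test (two-sided exact permutation test of the CPM, p = 0.00794, the smallest that 5 libraries against 5 allow). This fold lies just above the limit of 1.5, and the call depended on it. With Ncr1gfp/gfp replicate 2 left out the log2 fold change was 0.56, with Ncr1+/+ replicate 1 left out it was 0.53, and with limma-voom and sample quality weights together it was 0.51, all under the fold limit. The adjusted p was 0.00757 and 0.00363 in the edgeR fits without these libraries and 0.00549 in limma-voom with these weights, so that the difference passed the test in each of them but not the limit on fold. Without both libraries that were high in hepatocyte genes, the log2 fold change was 0.51 and the adjusted p was 0.0139 (edgeR).

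*Klra7* encodes Ly49G2, an inhibitory receptor that many NK cells carry and that binds MHC class I of other haplotypes than that of C57BL/6 mice most strongly. It had 8.63, 7.41, 5.10, 5.00 and 5.61 CPM in Ncr1+/+ replicates 1 to 5, from 99 to 168 counts. In Ncr1gfp/gfp replicates 1 to 5 it had 17.3, 11.5, 33.5, 21.9 and 9.94 CPM, from 167 to 633 counts. The lowest Ncr1gfp/gfp library was above the highest Ncr1+/+ library, and Ncr1gfp/gfp replicate 3 was the highest of all.

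The means of *Klra7* were 18.8 ± 9.49 CPM in Ncr1gfp/gfp and 6.35 ± 1.60 CPM in Ncr1+/+ libraries (SD, n = 5 per genotype), a 2.96-fold difference. Its log2 fold change was 1.57, with a standard error of 0.27 and an adjusted p of 0.00235 in the edgeR quasi-likelihood test (two-sided exact permutation test of the CPM, p = 0.00794). Without Ncr1gfp/gfp replicate 3 the log2 fold change was 1.25 and the adjusted p was 0.00842 in the same edgeR test. Without both libraries that were high in hepatocyte genes they were 1.38 and 0.00904 (edgeR). *Klra7* stayed called whichever of the 10 libraries was removed. Unlike *Klra5*, *Klra7* lies within the listed spans of *Klra12*, *Klra15* and *Klra22*, of which *Klra12* and *Klra15* were at 0 and *Klra22* had at most 12 counts in a library.

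*Klra9* and *Klra3* encode Ly49I and Ly49C, closely related inhibitory receptors that bind H-2Kb, the MHC class I molecule of C57BL/6 mice. *Klra9* was the second most abundant member. It ranged from 58.4 to 97.4 CPM in Ncr1+/+ (median 75.0) and from 71.3 to 99.6 CPM in Ncr1gfp/gfp libraries (median 75.3). Its means were 78.3 ± 16.0 and 80.3 ± 11.4 CPM (SD, n = 5 per genotype), a log2 fold change of 0.03 with a standard error of 0.12 and an adjusted p of 0.953 in the edgeR quasi-likelihood test.

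*Klra3* ranged from 8.08 to 15.1 CPM in Ncr1+/+ and from 9.32 to 15.6 CPM in Ncr1gfp/gfp libraries. Its log2 fold change was 0.18, with a standard error of 0.18 and an adjusted p of 0.791 in the edgeR quasi-likelihood test. Summed over both genes, so that a read given to the wrong member of the pair changes nothing, the level was 89.7 ± 18.2 CPM in Ncr1+/+ and 93.2 ± 10.5 CPM in Ncr1gfp/gfp libraries (SD, n = 5 per genotype). The receptors for H-2Kb thus had levels that overlapped throughout between the genotypes.

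*Klra8* encodes Ly49H, the activating receptor that recognizes a protein of mouse cytomegalovirus. It was counted in every library, at 5.66, 3.00, 1.70, 5.40 and 1.31 CPM in Ncr1+/+ replicates 1 to 5. In Ncr1gfp/gfp replicates 1 to 5 it had 6.92, 3.02, 4.13, 2.97 and 3.51 CPM. The highest library of each genotype was replicate 1, and the ranges overlapped over most of their extent. The log2 fold change was 0.27, with a standard error of 0.39 and an adjusted p of 0.875 in the edgeR quasi-likelihood test. It shares 99.9% of its listed span with *Klra21*, which had at most 1 count in a library.

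*Klra1* encodes Ly49A, an inhibitory receptor whose transcription is known to depend on the factor TCF-1. It had 0.617, 3.00, 0.70, 1.46 and 1.25 CPM in Ncr1+/+ and 1.90, 1.87, 7.52, 2.91 and 1.55 CPM in Ncr1gfp/gfp replicates 1 to 5. Ncr1gfp/gfp replicate 3, with 142 counts, was far above the rest, and the other 4 Ncr1gfp/gfp libraries lay within the Ncr1+/+ range. The log2 fold change was 1.15 with a standard error of 0.52, and the adjusted p was 0.389 in the edgeR quasi-likelihood test, although the unadjusted p was 0.0385. Without Ncr1gfp/gfp replicate 3 the log2 fold change was 0.54, and without that library and Ncr1+/+ replicate 1 it was 0.35.

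*Klra10* and *Klra2* were near the limit of what the depth can show. *Klra10*, which encodes Ly49J, had between 5 and 36 counts per library, and *Klra2*, which encodes Ly49B, a receptor known mainly from myeloid cells, had between 0 and 36. *Klra10* was at 0.622 ± 0.374 CPM in Ncr1+/+ and 1.16 ± 0.836 CPM in Ncr1gfp/gfp ILC1s, and *Klra2* was at 0.805 ± 0.419 and 1.08 ± 0.753 CPM (SD, n = 5 per genotype). Their log2 fold changes, 0.88 ± 0.66 and 0.41 ± 0.72 (standard error), had adjusted p-values of 0.694 and 0.905 in the edgeR quasi-likelihood test. At this depth no difference was detectable for either gene.

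The members differed in how evenly they were expressed across libraries of the same genotype. The coefficient of variation of *Klra5* was 14.7% in Ncr1gfp/gfp and 16.2% in Ncr1+/+ libraries, and that of *Klra9* was 14.3% and 20.5%. *Klra7* varied by 50.4% and 25.3%, *Klra8* by 39.9% and 59.6%, and *Klra1* by 79.1% and 68.3%. Counting alone would give 13.2% and 18.6% for *Klra1*, 5.44% and 8.94% for *Klra7*, and 1.43% and 1.70% for *Klra5*.

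Compared per kilobase of listed exon (RPKM), the order of the members in Ncr1+/+ ILC1s was *Klra5* (152 ± 24.6 RPKM), *Klra9* (65.6 ± 13.4), *Klra3* (8.58 ± 1.97), *Klra7* (5.13 ± 1.30), *Klra8* (2.90 ± 1.73), *Klra1* (0.844 ± 0.576), *Klra10* (0.756 ± 0.454) and *Klra2* (0.427 ± 0.222; all SD, n = 5). *Klra5* was above *Klra9*, and *Klra9* above *Klra3*, in every library, with ranges that did not overlap. From *Klra3* down to *Klra2*, each member overlapped in range with the next. In Ncr1gfp/gfp ILC1s *Klra7* (15.2 ± 7.66 RPKM) came before *Klra3* (9.76 ± 1.84 RPKM; SD, n = 5 per genotype), with overlapping ranges, and the rest of the order was the same. Where a member shares exons with another row, the countable length is shorter than the listed one, so that its RPKM may be too low.

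The 10 members together had 246, 301, 278, 279 and 282 CPM in Ncr1+/+ replicates 1 to 5 and 421, 424, 423, 374 and 315 CPM in Ncr1gfp/gfp replicates 1 to 5. Their sum was 391 ± 47.5 CPM in Ncr1gfp/gfp and 277 ± 19.5 CPM in Ncr1+/+ libraries (SD, n = 5 per genotype), a ratio of 1.41, and the genotypes did not overlap. Most of this sum was *Klra5*, which made up 68.9% ± 3.66 of the members' CPM in Ncr1gfp/gfp and 62.9% ± 8.09 in Ncr1+/+ libraries (SD, n = 5 per genotype). Without *Klra5* the sums were 122 ± 18.4 and 102 ± 20.2 CPM (SD, n = 5 per genotype), with overlapping ranges.

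**Figure D2:**
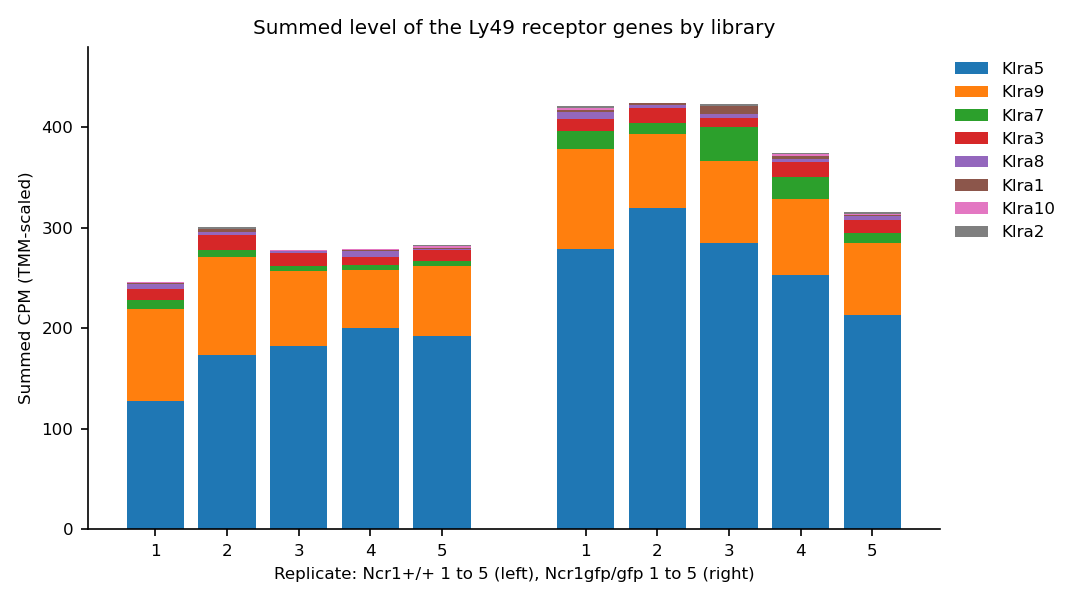
Summed CPM (y axis, from 0) of the Ly49 receptor genes in each library (x axis, replicates 1 to 5 of Ncr1+/+ at the left and of Ncr1gfp/gfp at the right), stacked by gene for the 8 members with any count. The sum lies between 246 and 301 CPM in Ncr1+/+ and between 315 and 424 CPM in Ncr1gfp/gfp libraries, and *Klra5* makes up most of it in every library.

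Within the sum, the share of *Klra9* was 28.4% ± 6.43 in Ncr1+/+ and 20.6% ± 2.56 in Ncr1gfp/gfp libraries, and that of *Klra7* was 2.32% ± 0.716 and 4.75% ± 2.14 (SD, n = 5 per genotype). The ranges of both shares overlapped between the genotypes. The lowest share of *Klra5* was 51.8%, in Ncr1+/+ replicate 1, which was also the library with the lowest *Klra5* level. As these are bulk libraries, a larger fraction of cells with a receptor and more RNA of it per cell cannot be told apart.

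Outside the members, the *Klra* rows were low. *Klra12*, *Klra13-ps*, *Klra15* and *Klra19* were at 0 in every library, and *Klra17*, *Klra18*, *Klra21*, *Klra22* and *Klra23* had between 3 and 84 counts over the 10 libraries. The pseudogene *Klra14-ps* was the only one of these rows to pass the filter on low counts. It was at 9.60 ± 2.21 CPM in Ncr1gfp/gfp and 7.04 ± 1.72 CPM in Ncr1+/+ libraries (SD, n = 5 per genotype), with a log2 fold change of 0.44, a standard error of 0.21 and an adjusted p of 0.421 in the edgeR quasi-likelihood test.

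The genes through which the receptors signal were not called. Of 15 such genes, all of which were tested, none passed in either direction, and their median log2 fold change was -0.01, against 0.00 over all tested genes. *Tyrobp*, which encodes DAP12, was at 670 ± 48.8 CPM in Ncr1gfp/gfp and 604 ± 26.2 CPM in Ncr1+/+ libraries (SD, n = 5 per genotype), with an adjusted p of 0.220 in edgeR. *Hcst*, which encodes DAP10, was at 70.7 and 71.4 CPM (edgeR adjusted p of 0.971). None of 6 genes for the MHC class I ligands and their loading was called either, and their median log2 fold change was -0.07.

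Among 17 tested genes for transcription factors that govern Ly49 expression or the fate of NK cells and ILC1s, 1 was called lower and none higher, with a median log2 fold change of -0.05. The called gene was *Tcf7*, which encodes TCF-1. It was at 50.1 ± 12.4 CPM in Ncr1gfp/gfp and 77.2 ± 14.0 CPM in Ncr1+/+ libraries (SD, n = 5 per genotype), with overlapping ranges, a log2 fold change of -0.63, a standard error of 0.14 and an adjusted p of 0.0247 in edgeR. *Tcf7* stayed called after removal of 5 of the 10 libraries, each in turn, and was not called by DESeq2 (adjusted p of 0.0577). Without both libraries that were high in hepatocyte genes its log2 fold change was -0.52 and it was not called (edgeR adjusted p of 0.146). Another 3 genes, *Runx1*, *Ets1* and *Ikzf2*, were lower at an adjusted p under 0.05 but did not reach the limit on fold, with log2 fold changes of -0.37, -0.21 and -0.44.

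Of 17 tested genes for other lectin-like receptors of the NK gene complex, none was called, and their median log2 fold change was 0.03. *Klri2*, whose product pairs with KLRE1, was higher at 388 ± 32.9 CPM in Ncr1gfp/gfp against 304 ± 18.2 CPM in Ncr1+/+ libraries (SD, n = 5 per genotype), with an edgeR adjusted p of 0.00320, but its log2 fold change of 0.35 did not reach the limit on fold.

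**Figure D3:**
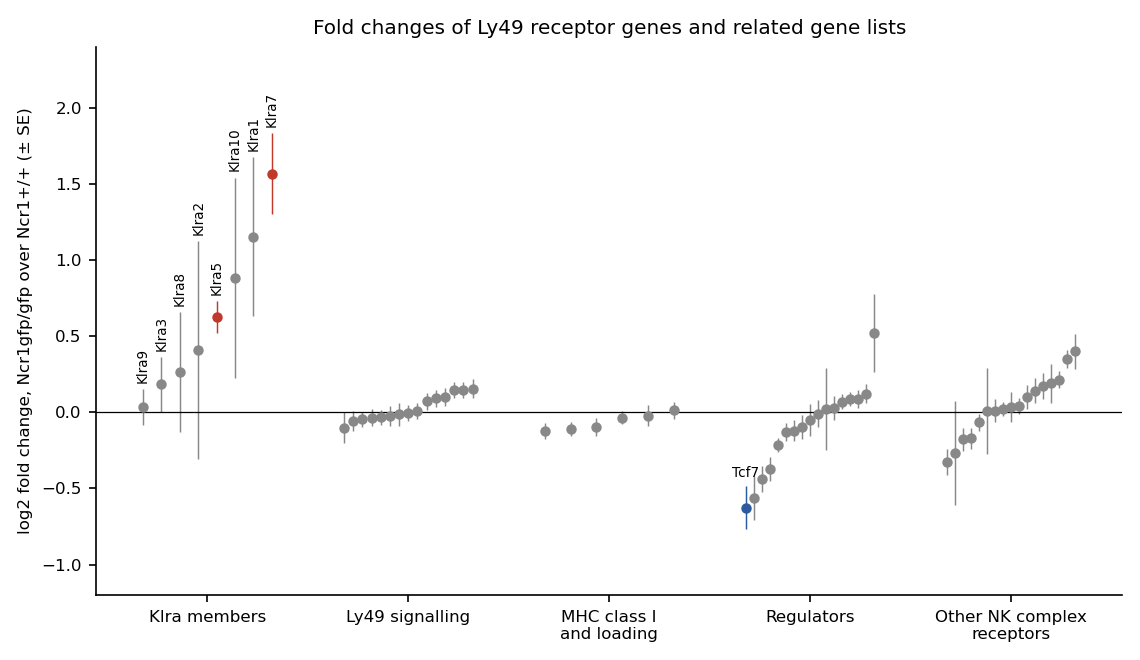
Log2 fold change (y axis, Ncr1gfp/gfp over Ncr1+/+, bars ± standard error) of the 8 tested Ly49 receptor genes and of the tested genes of 4 related lists (x axis), each point a gene. Red marks genes called higher, blue genes called lower and grey genes not called. *Klra5* (0.62) and *Klra7* (1.57) are called higher, and *Tcf7* (-0.63) is called lower.

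Ly49 receptors are carried by conventional NK cells and by some T cells, both of which the sort should remove. Of 9 tested genes that mark conventional NK cells, 1 was called. This was *Itgam*, which encodes CD11b, at 76.0 to 121 CPM in Ncr1gfp/gfp and 43.3 to 58.8 CPM in Ncr1+/+ libraries (log2 fold change 0.96, edgeR adjusted p of 5.59e-05, and 0.95 with an adjusted p of 0.00135 without both libraries that were high in hepatocyte genes). The sum over the list of 10 genes overlapped between the genotypes, at 1035 to 1093 and 999 to 1073 CPM. Most of this sum was *Spn*, at 764 ± 17.8 and 767 ± 26.7 CPM (SD, n = 5 per genotype), so that the sum says little about the other genes. *Eomes*, the factor that defines NK cells, was at 10.2 ± 4.88 and 7.10 ± 1.08 CPM (SD, n = 5 per genotype, edgeR adjusted p of 0.455). The tested genes of this list did not move in 1 direction. Of the 9, 5 had a log2 fold change above 0, and the median was 0.02. *Irf8* was lower without overlap, at 117 to 136 CPM in Ncr1gfp/gfp and 137 to 162 CPM in Ncr1+/+ libraries (log2 fold change -0.24, edgeR adjusted p of 0.0735).

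Of 7 tested genes that mark ILC1s, none was called, and their sum was 3413 to 3516 CPM in Ncr1gfp/gfp and 3269 to 3553 CPM in Ncr1+/+ libraries. The defining markers of the labelled cell type were present in every library. *Itga1*, which encodes CD49a, passed the test but not the limit on fold (log2 fold change 0.32).

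Genes that mark T cells differed between the genotypes in both directions. Of the 9 such genes in the table, 6 were tested, of which *Cd3e* and *Cd8a* were called higher and *Cd28* lower, and the sum of the list was 665 to 845 CPM in Ncr1gfp/gfp and 512 to 614 CPM in Ncr1+/+ libraries, without overlap. Most of this sum was *Cd3g*, at 687 ± 74.6 and 501 ± 53.1 CPM (SD, n = 5 per genotype), which did not overlap either and was not called because its log2 fold change of 0.45 was under the limit on fold (edgeR adjusted p of 0.00169). *Cd3d* and *Cd4* were not called (edgeR adjusted p of 0.0527 and 0.923). *Cd8b1*, *Cd5* and *Cd6* did not pass the filter on low counts. Their means were 0.011, 0.919 and 0.424 CPM in Ncr1gfp/gfp and 0.304, 0.121 and 0.019 CPM in Ncr1+/+ libraries. *Cd3e*, a chain of the T cell receptor complex, had 2.80, 6.62, 6.85, 6.76 and 5.55 CPM in Ncr1+/+ and 15.0, 9.05, 38.8, 30.2 and 12.7 CPM in Ncr1gfp/gfp replicates 1 to 5. Like *Klra7*, it was highest in Ncr1gfp/gfp replicate 3, with Ncr1gfp/gfp replicate 4 next. *Klra1* was highest in the same library, but Ncr1+/+ replicate 2 (3.00 CPM) came next, above Ncr1gfp/gfp replicate 4 (2.91 CPM). Within Ncr1+/+ libraries, replicate 1 was the highest for *Klra7* and the lowest for *Cd3e*. Without both libraries that were high in hepatocyte genes, the log2 fold change was 1.37 for *Cd3e* and 0.91 for *Cd8a* (edgeR adjusted p of 0.0234 and 0.0353), against 1.88 and 1.53 with all libraries. That of *Cd28* was then -0.81 and no longer called (edgeR adjusted p of 0.125), against -0.94. The part of T cells in the levels of *Klra7* and *Klra1* was not tested.

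**Figure D4:**
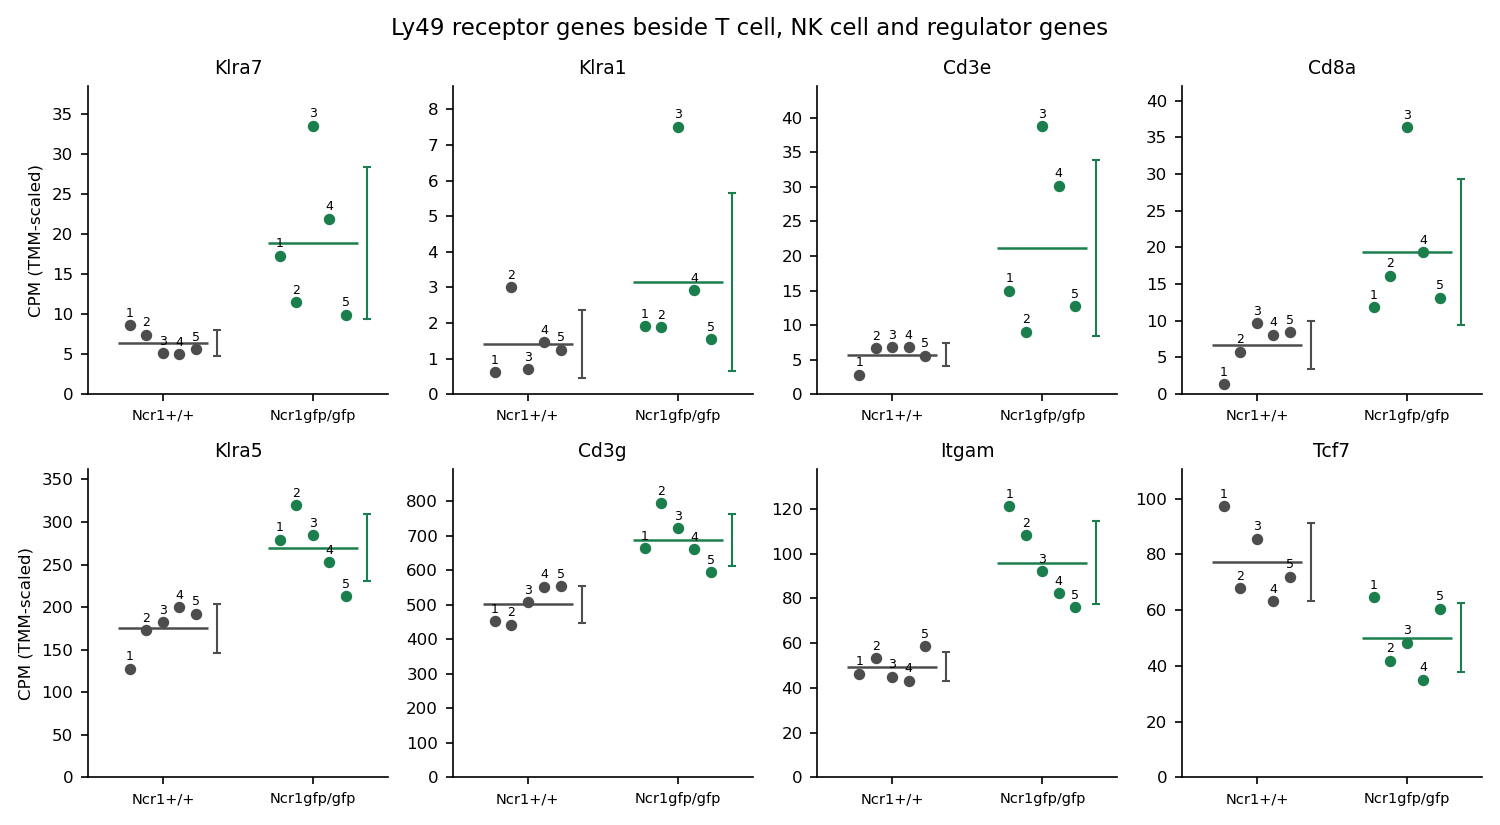
CPM (y axes, from 0) of *Klra7*, *Klra1* and *Klra5* beside the T cell genes *Cd3e*, *Cd8a* and *Cd3g*, the NK cell gene *Itgam* and the regulator *Tcf7* in 5 Ncr1+/+ and 5 Ncr1gfp/gfp libraries. Points are libraries with their replicate number, lines are means and bars are SD. Ncr1gfp/gfp replicate 3 is the highest library for *Klra7* (33.5 CPM), *Klra1* (7.52 CPM) and *Cd3e* (38.8 CPM), but not for *Klra5* (285 CPM).

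No gene of the lists for macrophages and Kupffer cells, hepatocytes or plasmacytoid dendritic cells was called, and the summed level of each overlapped between the genotypes. The 8 macrophage genes summed to 11.3 to 50.3 CPM in Ncr1gfp/gfp and 16.1 to 74.2 CPM in Ncr1+/+ libraries. The 6 hepatocyte genes summed to 1.37 to 54.3 and 1.68 to 31.5 CPM, and the 5 plasmacytoid dendritic cell genes to 43.4 to 55 and 42.0 to 61.1 CPM.

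The genes whose levels followed a member most closely over the 10 libraries were found by the root mean square (RMS) difference of log2 CPM after centring each gene on its mean. That mean is over all 10 libraries, so that a difference between the genotypes stays in the profile. For a called member, a gene with a like difference can therefore come near without following it within a genotype. For *Klra5*, whose own RMS spread was 0.38, they were *Errfi1*, *Nnt* and *Phactr2*, at 0.14 to 0.15. For *Klra7*, with a spread of 0.88, they were *Tbc1d16*, *Gcm2* and *Gm11532*, at 0.55 to 0.57, so that no gene followed it closely. For *Klra9* they were *Klhl4*, *Rnpc3* and *AI987944* (0.08 to 0.12, spread 0.23), and for *Klra3* they were *Zfp943*, *Cep170* and *Bnip3l* (0.13 to 0.16, spread 0.29). *Klra1* was nearest to *Cd3d*, *Zfp72* and *Kcng3* (0.56 to 0.59), against a spread of 0.94, so that no gene followed it closely either. *Klra8* was nearest to *Impdh2*, *Atpaf1* and *1700001C19Rik* (0.37 to 0.43, spread 0.69). *Klra10* was nearest to *Gm19510*, *Mxra7* and *A530072M11Rik* (0.32 to 0.47, spread 0.94), and *Klra2* to *Cx3cr1*, *Deptor* and *Ctnnd1* (0.47 to 0.56, spread 1.19). No member was among the nearest genes of another member.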

How the data were processed

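RNA of sorted liver ILC1s from 5 Ncr1gfp/gfp and 5 Ncr1+/+ libraries was sequenced by the authors, who trimmed reads with Trimmomatic and FASTP, used STAR for alignment and HTSeq at its default setting for counting. They deposited raw read counts. The table names no genome build. Reads that map to several places or to exons of several genes are not counted at that setting, which can lower the counts of close paralogs.

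Counts were analysed with edgeR 4.0.16 and limma 3.58.1 in R 4.3.3. Genes were filtered with filterByExpr, scaled by TMM and compared by the quasi-likelihood test, with Benjamini-Hochberg adjustment over 11463 of 24564 genes. A gene was called at an adjusted p under 0.05 and a fold above 1.5 or below 0.7. CPM are TMM-scaled and RPKM are CPM per kilobase of listed exon. The fit was tested on simulated data with 200 changed genes. Totals of 15796253 to 22623133 counts per library set the precision, and the limit of 3 counts covers counting error only. CPM of single genes were compared by an exact permutation test.

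Alternatives were upper-quartile scaling, DESeq2 1.42.0, the likelihood ratio test, limma-voom with sample quality weights, other filters, other thresholds, a replicate block and leaving out each library. Leaving out the 2 libraries highest in hepatocyte genes was chosen after seeing the data. Genes named are the 10 members, other *Klra* rows, *Ncr1*, called genes of the lists, markers that moved with a member and the 3 genes nearest to each tested member. *Tyrobp*, *Hcst*, *Eomes*, *Irf8*, *Spn*, *Itga1*, *Runx1*, *Ets1*, *Ikzf2*, *Klri2*, *Cd8b1*, *Cd5* and *Cd6* were named after their values were seen. The members and lists were chosen with earlier results of these data known. A marker list that holds a withheld item is not reported here.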

Additional observations from a re-analysis of the deposited data

Results flagged for a closer look

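Within groups of 5 libraries, a level was singled out where the gap between the highest or lowest library and its neighbour exceeded 0.71 of the whole range of the group (Dixon's limit). Of 40 groups examined, 3 passed, where chance alone would give about 2.0. *Klra1* was at 7.52 CPM in Ncr1gfp/gfp replicate 3, against 2.91 CPM in the next library. The summed level of the hepatocyte genes was 54.3 CPM in Ncr1gfp/gfp replicate 3, against 4.88 CPM in the next library, and 31.5 CPM in Ncr1+/+ replicate 1, against 5.60 CPM in the next library.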

How the results depend on the processing

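The number of genes called, 84 over all tested genes, was 126 with DESeq2, 138 with the likelihood ratio test and 131 with no filter on low counts. It was 155 by adjusted p alone, 23 with an absolute log2 fold change above 1 and 60 to 98 with single libraries left out. Of the members, 2 were called, and *Klra7* was called in every alternative. With limma-voom and sample quality weights (both changed together), with an absolute log2 fold change above 1 and without the 2 libraries highest in hepatocyte genes, 1 member was called, and with single libraries left out 1 to 2 were. Calls among the signalling, ligand, regulator and NK gene complex lists numbered 1 (*Tcf7*). With DESeq2 they also numbered 1, but the gene was *Lef1* and not *Tcf7*. They numbered 2 with the likelihood ratio test, with no filter, with at least 10 counts in every library and with the replicate block (*Lef1* in addition), 5 by adjusted p alone, 0 with an absolute log2 fold change above 1 or without the 2 libraries highest in hepatocyte genes, and 0 to 2 with single libraries left out. The log2 fold change of *Klra8* was -0.0013 to 0.52 and that of *Klra9* -0.055 to 0.12 with single libraries left out. Of the called markers, *Cd8a* and *Cd28* each lost their call in 5 of 18 alternatives that kept the thresholds, while *Cd3e* and *Itgam* kept theirs in all 18. With an absolute log2 fold change above 1 as the limit, *Itgam* (0.96) and *Cd28* (-0.94) were not called. By CPM in place of RPKM, *Klra2* and *Klra10* changed places in Ncr1+/+ ILC1s. Replicate numbers did not pair the libraries (same-number correlations of -0.02 to 0.04), and the replicate block gave 87 called genes. Depth limits *Klra2* and *Klra10*, and counts of 0 in *Klra4* and *Klra6* rest on rows that share their spans.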
